A study of Mus musculus with 4 samples.

Results

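The 10 genes described here are a core of the transforming growth factor β (TGF-β) pathway: the ligand gene Tgfb1, the receptor genes Tgfbr1 and Tgfbr2, the signal carriers Smad2, Smad3 and Smad4, the inhibitory Smad7, and the repressor genes Ski, Skil and Tgif1. They were chosen by symbol from a table of 22865 genes, and 10 of 10 were found in it. The RNA was from lung γδ T cells of female C57Bl/6 mice aged 10 weeks, either Aire-/- or Aire+/+, with 2 libraries per genotype. Aire encodes a nuclear factor of the thymic medulla that drives expression of peripheral-tissue antigens, against which new T cells are screened. The cells were viable CD45+ TCRb- TCRgd+ CD27- and negative for Vg1, 2, 4 and 5, a gate the submitters call Tgd17, meaning γδ T cells of the interleukin-17 type. For each library 500 sorted cells were processed with Smart-Seq2, which amplifies cDNA over the whole transcript. The labels give no targeting construct, no treatment and no statement that libraries came from separate animals, so p-values reflect only how far these libraries differ, a spread that may be technical.

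TGF-β binds a type II receptor (Tgfbr2), which activates a type I receptor (Tgfbr1). The type I receptor phosphorylates SMAD2 and SMAD3, and these enter the nucleus with SMAD4 to regulate genes. SMAD7 blocks the receptor and is itself induced by the signal, while SKI, SKIL and TGIF1 hold SMAD-bound genes in check. In mice, TGF-β signalling is known to take part in the development of interleukin-17-producing γδ T cells.

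Library totals ran from 1106891 to 1265239 counts, and the 10 members together took 1062 to 1168 counts per library, 0.0923% to 0.102% of the total. Aire had 0 counts in all 4 libraries and so checked no genotype label. The 10 markers of interleukin-17 γδ T cells were all detected, with summed levels of 6491 and 7306 CPM in Aire-/- and 4455 and 6268 CPM in Aire+/+ libraries. CPM is a count scaled to a common library total over the tested genes, with TMM factors that adjust for library composition. B cell markers, outside the gate, were detected for 8 of 8 genes, at summed levels of 2271 and 1640 CPM in Aire-/- and 4749 and 2845 CPM in Aire+/+ libraries. Igj, the joining chain of secreted antibodies, made up 0 and 3.77 CPM of those sums in Aire-/- and 1353 and 708 CPM in Aire+/+ libraries, and edgeR called it lower (log2 fold change -9.03, adjusted p = 8.1e-06). Without Igj the sums were 2271 and 1636 against 3396 and 2137 CPM, with Aire+/+ replicate 2 between the Aire-/- libraries.

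One member, the inhibitory Smad7, stood apart in size of difference, at 11.1 ± 0.251 CPM in Aire-/- against 31.9 ± 4.00 CPM in Aire+/+ libraries (SD, n = 2 each), yet it did not pass the test over all genes. The tested receptor, signal-carrying SMAD and repressor genes had log2 fold changes between -0.25 and 0.42, and of them only Tgfbr2 did not overlap between the genotypes. Of the 10 members 9 had enough counts to be tested, and 0 were called higher in Aire-/- libraries and 0 lower by the quasi-likelihood test of edgeR (adjusted p under 0.05). Over all 9783 genes tested, 0% were called higher and 0.0204% lower. DESeq2's Wald test, which called 0% of all genes higher and 0.0196% lower, and limma-voom, at 0% and 0.0102%, also called 0 members, and 1 of the 9 had an unadjusted p under 0.05. Across all genes tested, 2.80% were higher and 2.77% lower at that unadjusted level.

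Per kilobase of transcript, the repressor gene Tgif1 was the most abundant of the 10 and the ligand gene Tgfb1 the least. Levels between genes are compared here as CPM per kilobase of the longest annotated transcript, since longer transcripts give more reads. Tgif1 had a mean of 99.1 CPM per kilobase over the 4 libraries, with a range of 93.0 to 114, and Skil a mean of 29.3, with a range of 22.7 to 41.8. Tgfbr2 followed at 17.2, with a range of 13.7 to 19.2. Tgif1, Skil and the genes below them had separate ranges over the libraries. Below Skil every pair of neighbours overlapped: Tgfbr2, Smad3 (mean 13.7), Smad4 (12.5), Smad2 (11.4), Ski (8.92), Tgfbr1 (7.77), Smad7 (5.03) and Tgfb1 (2.64), all in CPM per kilobase. The order of the 8 most abundant genes was nearly the same in both genotypes, except that Smad3 and Smad4 exchanged places. Smad7 was level with Tgfbr1 in Aire+/+ libraries, at 7.46 ± 0.935 against 7.55 ± 1.64 CPM per kilobase. In Aire-/- libraries it was level with Tgfb1 instead, at 2.60 ± 0.0586 against 2.71 ± 0.316 CPM per kilobase (SD, n = 2 each).

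**Figure D1:**
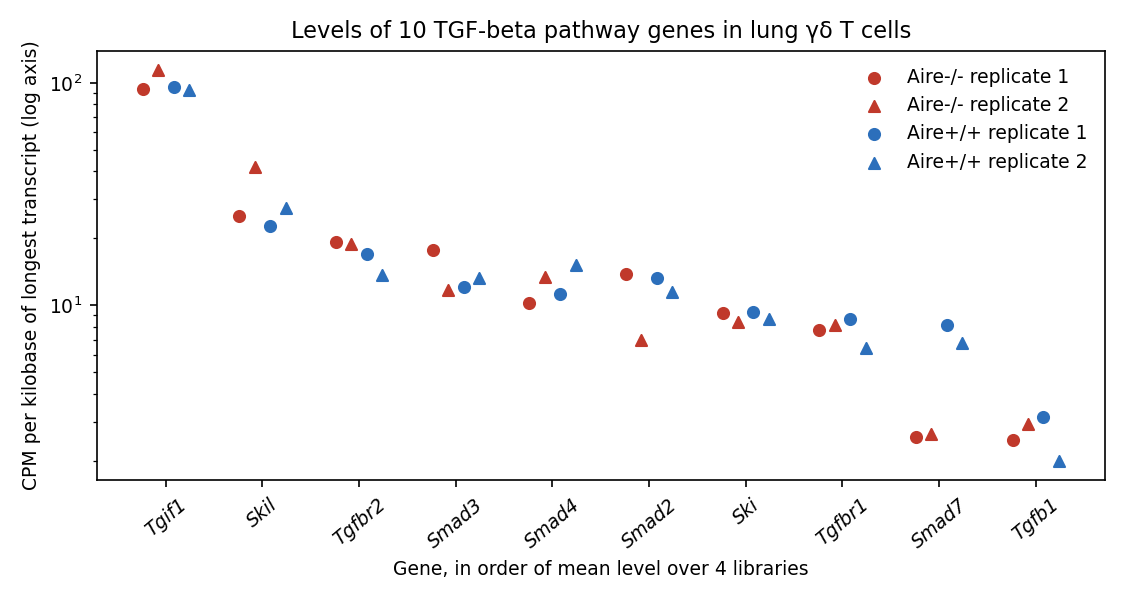
Level of each member in each library, in CPM per kilobase of the longest transcript on a log axis, with colour for genotype and symbol shape for replicate. Tgif1 lies at 93.0 to 114 in every library, and the Smad7 points separate by genotype while those of the other members mostly intermingle.

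Tgfb1 (chromosome 7, 25687002 to 25705077, GRCm38) encodes the ligand. It had 7 and 8 counts in the Aire-/- pair, against 10 and 6 in the Aire+/+ pair. The values overlapped, and the gene was too low to be tested. Its level was 6.97 ± 0.813 against 6.61 ± 2.08 CPM (SD, n = 2 each). Summed over each pair and scaled for depth, Aire-/- counts were 1.05 times Aire+/+ counts, and the exact 95% interval of that ratio, for counting error alone, was 0.482 to 2.26. With no filter on low counts edgeR gave a log2 fold change of 0.07 and an interval of -1.46 to 1.61, so a 2-fold difference in either direction was not excluded at this depth. Log2 fold changes are Aire-/- minus Aire+/+ throughout.

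The receptor genes were expressed in all 4 libraries, Tgfbr2 above Tgfbr1. Tgfbr2 (chromosome 9, 116084293 to 116175360) encodes the type II receptor that binds the ligand. It had 170 and 162 counts in the Aire-/- pair, against 171 and 130 in the Aire+/+ pair, which are 155 and 153 against 138 and 111 CPM. Both Aire-/- libraries lay above both Aire+/+ libraries, as they did for 17.1% of all genes tested. Its log2 fold change was 0.30 (SE 0.22, 95% interval -0.18 to 0.79, adjusted p = 0.95 by edgeR). The summed level of the interleukin-17 γδ T cell markers was also higher in both Aire-/- libraries. Cd163l1, picked after its values were seen, made up most of that sum, at 3891 and 4356 against 2604 and 3723 CPM. Of the 10 markers 6 were higher in both Aire-/- libraries and 0 lower in both, beside 17.1% and 17.3% of all genes tested. The part of these markers in the Tgfbr2 value was not tested. Tgfbr1 (chromosome 4, 47353222 to 47414931), the type I receptor kinase, had 49 and 50 counts in the Aire-/- pair, against 62 and 43 in the Aire+/+ pair. Its values of 44.8 and 47.1 CPM in Aire-/- lay between the 50.1 and 36.8 CPM of the Aire+/+ libraries. Its log2 fold change was 0.08 (95% interval -0.63 to 0.79). Tgfbr2 counts were 2.76 to 3.47 times those of Tgfbr1 in the 4 libraries.

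Smad2 and Smad3 encode the carriers that the receptor phosphorylates, and their values depended on the library more than on the genotype. Smad2 (chromosome 18, 76241580 to 76310963) had 123 and 60 counts in the Aire-/- pair, against 133 and 109 in the Aire+/+ pair, which are 112 and 56.6 against 107 and 93.3 CPM. Aire-/- replicate 2 was low and Aire-/- replicate 1 was the highest of all 4, a 1.99-fold spread within the genotype. Its log2 fold change was -0.25 (95% interval -0.92 to 0.42), and it was 0.16 without Aire-/- replicate 2. Smad3 (chromosome 9, 63646767 to 63757994) had 99 and 63 counts in the Aire-/- pair, against 76 and 79 in the Aire+/+ pair, which are 90.4 and 59.4 against 61.4 and 67.6 CPM. The Aire-/- libraries again enclosed the Aire+/+ values, with replicate 2 the lowest of the 4. Its log2 fold change was 0.22 (95% interval -0.42 to 0.85), and it was -0.11 without Aire-/- replicate 1. Smad4 (chromosome 18, 73639009 to 73703780), the partner shared by all receptor-activated SMADs, had 38 and 48 counts in the Aire-/- pair, against 47 and 60 in the Aire+/+ pair. At 34.7 and 45.3 against 38.0 and 51.3 CPM the genotypes overlapped, and its log2 fold change was -0.16 (95% interval -0.90 to 0.58). Adjusted p was 0.98 for Smad2, 0.98 for Smad3 and 0.99 for Smad4 by edgeR.

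Smad7 (ENSMUSG00000025880, chromosome 18, 75367529 to 75395935, plus strand) encodes the inhibitory SMAD that binds the activated type I receptor and recruits ubiquitin ligases to it. It had 12 and 12 counts in the Aire-/- pair, against 43 and 34 in the Aire+/+ pair, which are 11.0 and 11.3 against 34.7 and 29.1 CPM. Both Aire-/- libraries lay below both Aire+/+ libraries, as they did for 17.3% of all genes tested. The log2 fold change was -1.51 (SE 0.44, 95% interval -2.46 to -0.56), a 2.85-fold lower fitted level in Aire-/- libraries. The unadjusted p was 0.0047, place 57 among the 9783 genes, and the adjusted p over all of them was 0.78 by edgeR, so the difference was not called. Summed over each pair and scaled for depth, Aire+/+ counts were 2.87 times Aire-/- counts, with an exact 95% interval of 1.80 to 4.75 for counting error alone. No other annotated gene overlaps Smad7 in GENCODE M21.

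The direction for Smad7 held in every one of the 15 processing alternatives, with log2 fold changes from -1.64 to -1.38, and 0 of the 15 called it. Since the genotypes did not overlap, these alternatives could hardly have turned the direction. Over those that kept all 4 libraries, adjusted p ran from 0.35 to 0.997 by edgeR, limma-voom or DESeq2. Set against the receptor genes of the same library, a ratio free of library scaling and chosen after the values were seen, Smad7 had 5.48 and 5.66 counts per 100 of Tgfbr1 and Tgfbr2 in Aire-/- libraries. In the Aire+/+ libraries it had 18.5 and 19.7 per 100. Against Smad2 and Smad3 together it had 5.41 and 9.76 per 100 in Aire-/- and 20.6 and 18.1 per 100 in Aire+/+ libraries. The genotypes did not overlap on either ratio, but both reuse the same Smad7 counts, which already did not overlap. The ratios therefore add no independent evidence.

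**Figure D2:**
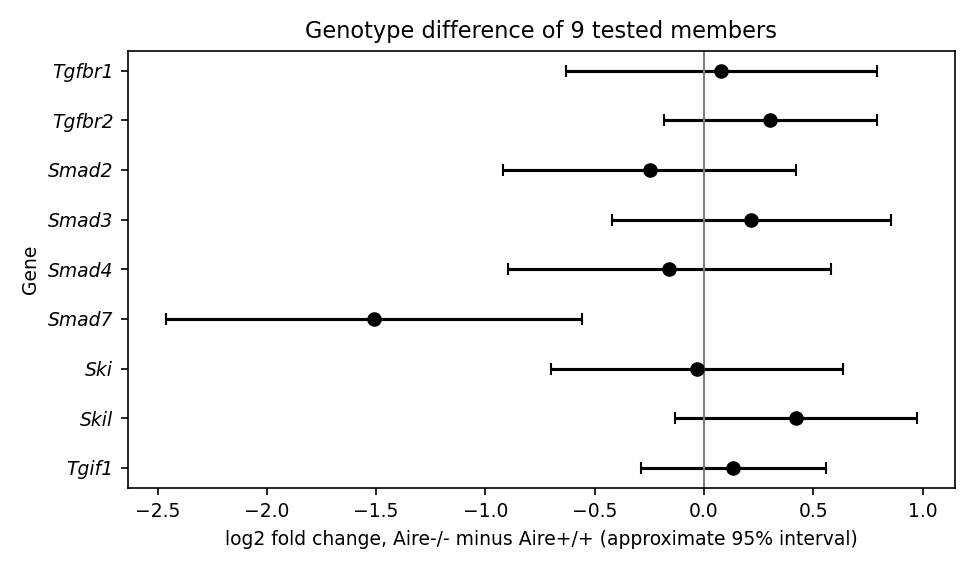
Log2 fold change of the 9 tested members, Aire-/- minus Aire+/+, from the edgeR fit over all genes, with approximate 95% intervals that are not adjusted for the number of genes. The interval of Smad7 runs from -2.46 to -0.56 and those of the other 8 span 0.

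In such bulk libraries, fewer cells that carry a transcript and less of it per cell cannot be told apart. Summed B cell markers were lower in both Aire-/- libraries, as Smad7 was, but without Igj the sums overlapped between the genotypes. Of the 8 markers 4 were lower in both Aire-/- libraries and 0 higher in both. Over all genes tested these shares were 17.3% and 17.1%, to be set beside each count of markers below. The ratio of B cell counts (Ms4a1, Cd79a and Cd79b) to T cell counts (Cd3d, Cd3e and Cd3g) was 1.48 and 0.999 in the Aire-/- pair and 3.10 and 1.22 in the Aire+/+ pair. On that ratio, unlike the sum of all 8 markers, Aire+/+ replicate 2 lay between the Aire-/- libraries. Endothelial markers were detected for 4 of 4 genes, with summed levels of 120 and 113 CPM in Aire-/- and 145 and 176 CPM in Aire+/+ libraries. Pecam1, which leukocytes also carry, had 110 to 171 counts per library and made up most of that sum, and Cdh5, a defining endothelial gene, had 0 to 6 counts per library. Without Pecam1 the sums were 6.39 and 9.43 against 7.27 and 51.3 CPM, the last of which came mostly from 50 counts of Cldn5. Lung epithelial markers summed to 5.48 and 7.54 against 14.5 and 10.3 CPM. Of these Epcam had 1 and 2 against 13 and 7 counts, while Sftpc, Sftpb and Scgb1a1 had 0 to 3 counts per library. Macrophage and monocyte markers summed to 21.9 and 78.3 against 206 and 36.8 CPM. Without Lyz2, which single libraries of each genotype carried, they summed to 21.0 and 20.7 against 55.8 and 35.1 CPM. Of these markers Cd14 had 0 and 0 against 32 and 11 counts, and Mrc1 had 2 and 3 against 13 and 12 counts. They were the only 2 of the 7 that lay lower in both Aire-/- libraries. On the others the genotypes overlapped, and 0 lay higher in both. The αβ T cell markers summed to 737 and 493 against 1283 and 692 CPM, and without Ccr7, which B cells can also express, to 67.6 and 38.7 against 49.3 and 50.5 CPM. Platelet markers summed to 12.8 and 8.49 against 39.6 and 9.41 CPM. Dendritic cell markers summed to 63.9 and 41.5 against 21.8 and 40.2 CPM, higher in both Aire-/- libraries. Of these 5 markers 3 were higher in both Aire-/- libraries and 0 lower in both, beside 17.1% and 17.3% of all genes tested. Xcr1 made up most of the sum, at 41.1 and 25.5 against 15.4 and 22.2 CPM. Itgax, at 9 and 5 against 1 and 3 counts, and Zbtb46, at 3 and 7 against 2 and 3, were too low to be tested. Natural killer cell sums were 24.7 and 40.5 against 28.3 and 42.8 CPM. Fibroblast sums were 21.9 and 5.66 against 7.27 and 9.41 CPM. Single markers in these sentences were picked after their values were seen, and the part of these cells in the Smad7 value was not tested.

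The repressor genes together made up 53.1% and 64.3% of all member counts in the Aire-/- pair, against 53.6% and 57.1% in the Aire+/+ pair. Tgif1 (chromosome 17, 70844205 to 70853546) encodes a homeodomain protein that binds SMADs and recruits histone deacetylases. It had 322 and 380 counts in the Aire-/- pair, against 373 and 342 in the Aire+/+ pair. At 294 and 358 against 301 and 293 CPM the genotypes overlapped, and its interval was the narrowest of the members, -0.29 to 0.56 around a log2 fold change of 0.13. Skil (chromosome 3, 31095058 to 31122577), the SKI-like repressor SnoN, had 186 and 298 counts in the Aire-/- pair, against 189 and 215 in the Aire+/+ pair, which are 170 and 281 against 153 and 184 CPM. Aire-/- replicate 2 was high, and the other Aire-/- library lay between the Aire+/+ libraries. Its log2 fold change of 0.42 (SE 0.26, 95% interval -0.13 to 0.98, adjusted p = 0.93 by edgeR) was 0.01 without Aire-/- replicate 2 and 0.75 without Aire-/- replicate 1. Ski (chromosome 4, 155154075 to 155222592), the founding member of that family, had 56 and 49 counts in the Aire-/- pair, against 64 and 56 in the Aire+/+ pair. It varied least among the libraries, at 46.2 to 51.7 CPM, with a log2 fold change of -0.03 (95% interval -0.70 to 0.63).

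Over the 8 tested members other than Smad7, log2 fold changes lay between -0.25 and 0.42 and adjusted p between 0.93 and 0.99 by edgeR. Their 95% intervals ran from -0.92 at the lowest to 0.98 at the highest, so each interval taken by itself lay within a 2-fold difference in either direction. These intervals are approximate, rest on 2 libraries per genotype and do not show that levels were equal. Of all 9 tested members 5 lay above 0 and 4 below, and their median log2 fold change was 0.08, beside 0.01 over all genes tested, 50.9% of which lay above 0.

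**Figure D3:**
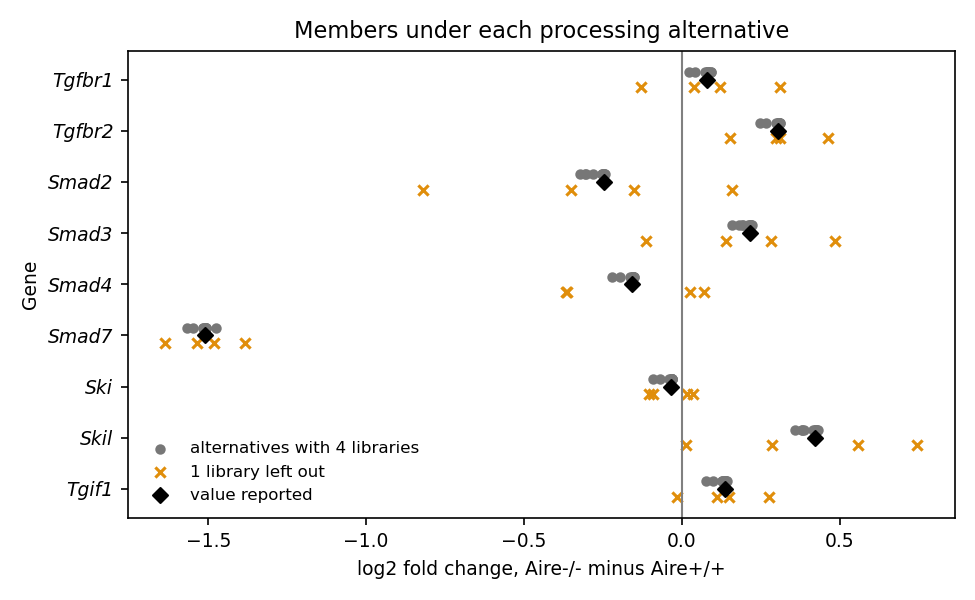
Log2 fold change of each tested member as reported (diamonds), under alternatives that keep all 4 libraries (grey points) and with 1 library left out (crosses). Smad7 stays between -1.64 and -1.38, while the crosses of Tgfbr1, Smad2, Smad3, Smad4, Ski and Tgif1 fall on both sides of 0.

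Of 89 other genes of the pathway in 8 lists, 57 could be tested, and edgeR called 0 of them higher and 0 lower, beside the 0% and 0.0204% of all genes. Of the 57, 26 lay above 0 and 31 below, with a median log2 fold change of -0.07. Both Aire-/- libraries lay above both Aire+/+ libraries for 11 of the 57 and below for 12, where all tested genes gave 17.1% and 17.3%. An unadjusted p under 0.05 by edgeR was seen for 4 of the 57: Tgfb3, Eng, Smad5 and Sp1. Over all genes tested, 2.80% were higher and 2.77% lower at that level.

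Most other ligand genes were barely detected. Of 13 listed, 2 could be tested and 1, Bmp6, had 0 counts in all 4 libraries. Tgfb3, a second ligand of the same receptors, had 12 and 19 counts in the Aire-/- pair, against 61 and 31 in the Aire+/+ pair, at 14.4 ± 4.92 against 37.9 ± 16.1 CPM (SD, n = 2 each). Every Aire-/- value lay below every Aire+/+ value, and the log2 fold change was -1.39 (SE 0.46, adjusted p = 0.83 by edgeR). Per kilobase, Tgfb3 had a mean of 7.74 CPM over the libraries against 2.64 CPM for Tgfb1. Bmp7, a bone morphogenetic protein, had a log2 fold change of -0.07.

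Genes that hold the ligand latent or free it had 5 of 11 tested, with 2 above 0 and 3 below (median -0.11). Nrros, which tethers latent TGF-β to the cell surface, was the most abundant per kilobase, at 38.4 CPM over the libraries, with a log2 fold change of -0.11. Itgav, the integrin αV chain that helps release active TGF-β, was at 47.8 ± 3.05 against 32.9 ± 5.44 CPM (0.54, adjusted p = 0.93). Ltbp1, a latent TGF-β binding protein, had a log2 fold change of -0.89. Thbs1, the activator thrombospondin-1, had 1 and 21 counts in the Aire-/- pair, against 55 and 1 in the Aire+/+ pair, so that single libraries set its value of -1.14. It was called lower without Aire+/+ replicate 2 (-2.10, adjusted p = 0.043) and was 3.43 without Aire+/+ replicate 1.

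Among other receptors of the family 7 of 12 were tested, with 5 above 0 and 2 below and a median log2 fold change of 0.62. Eng, the co-receptor endoglin, had 38 and 46 counts in the Aire-/- pair, against 18 and 21 in the Aire+/+ pair, at 39.0 ± 6.13 against 16.3 ± 2.42 CPM. The genotypes did not overlap, and the log2 fold change was 1.26 (SE 0.39, adjusted p = 0.83 by edgeR). Eng is abundant on endothelial cells. Of the 4 endothelial markers, 3 were lower in both Aire-/- libraries and 1, Vwf, was higher in both. Over all genes tested 17.3% were lower in both and 17.1% higher. Of the 3 lower markers, Pecam1 is also carried by leukocytes, and Cdh5 and Cldn5, like Vwf, had too few counts to be tested. Vwf had 4 and 6 counts in the Aire-/- pair, against 1 and 4 in the Aire+/+ pair. The whole list summed to the values given with Smad7. The part of endothelial cells in the Eng value was not tested. The bone morphogenetic protein receptors Bmpr2 (0.62) and Bmpr1a (0.68) had adjusted p of 0.94. Acvr2b had 0 counts in all 4 libraries.

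Of the 4 other SMADs 2 were tested. Smad5, which carries bone morphogenetic protein signals, had 35 and 16 counts in the Aire-/- pair, against 57 and 50 in the Aire+/+ pair, at 23.5 ± 11.9 against 44.4 ± 2.32 CPM (-0.91, SE 0.40, adjusted p = 0.89). Its Aire-/- values lay below both Aire+/+ values and differed 2.12-fold from each other. Smad9 had a log2 fold change of -0.08. Smad6, the second inhibitory SMAD, had 0, 0, 1 and 0 counts.

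**Figure D4:**
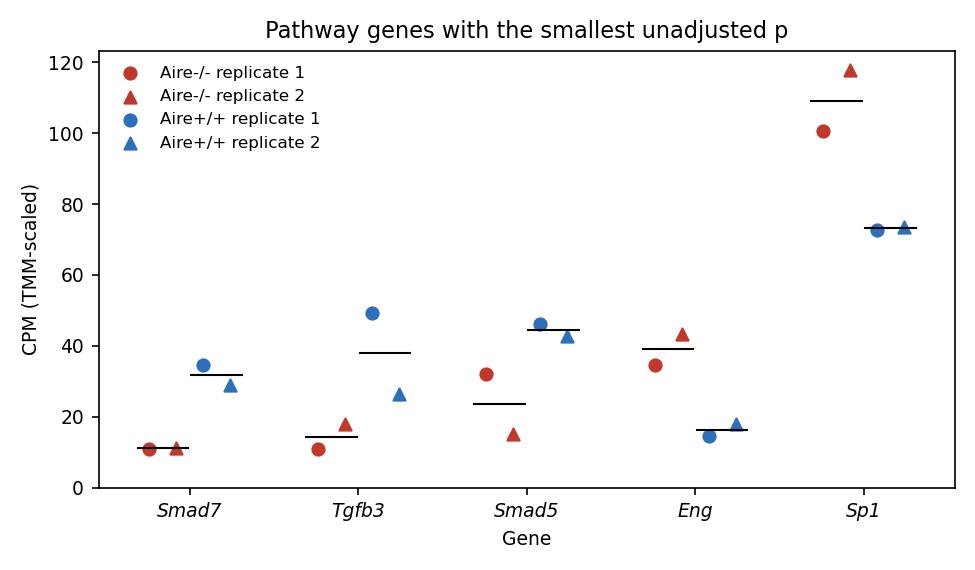
TMM-scaled CPM per library of Smad7 and of the 4 other pathway genes with an unadjusted p under 0.05, with a bar at each genotype's mean. Smad7, Tgfb3 and Smad5 lie lower and Eng and Sp1 higher in both Aire-/- libraries, and none of the 5 passed the test over all genes.

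Regulators of receptors and SMADs split evenly, with 7 above 0 and 7 below among 14 tested of 16 (median 0.01). Smurf2, a ubiquitin ligase that SMAD7 brings to the receptor, was at 26.4 ± 5.31 against 44.1 ± 2.96 CPM (-0.74, adjusted p = 0.91). Nedd4l, another ligase of SMADs, had a log2 fold change of -0.71. Usp15, a deubiquitinase that opposes receptor degradation, was at 176 ± 19.7 against 129 ± 5.81 CPM (0.44, adjusted p = 0.91). Fkbp1a, the immunophilin FKBP12 that binds the resting type I receptor, was the most abundant per kilobase, at 98.1 CPM over the libraries, with a log2 fold change of 0.26.

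Nuclear partners of SMADs also split evenly, with 6 above 0 and 6 below among 12 tested of 13 (median -0.01). Sp1, a transcription factor that cooperates with SMADs, was at 109 ± 12.3 against 73.2 ± 0.603 CPM (0.58, SE 0.24, adjusted p = 0.89). The co-repressor gene Ncor1 had a log2 fold change of 0.30, Ctbp1 one of -0.55 and the histone deacetylase gene Hdac1 one of -0.03.

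Genes that TGF-β can induce had 7 of 12 tested, 3 above 0 and 4 below, with a median of -0.06. Itgae, the CD103 integrin chain that TGF-β induces in tissue-resident T cells, had 183 and 117 counts in the Aire-/- pair, against 170 and 205 in the Aire+/+ pair. The values overlapped, with a log2 fold change of -0.17 (adjusted p = 0.99). Id3, an inhibitor of E proteins, had one of -0.47. Junb, an AP-1 subunit also induced by many other stimuli, had 797 and 2783 counts in the Aire-/- pair, against 1769 and 591 in the Aire+/+ pair. Its log2 fold change of 0.79 (adjusted p = 0.94) went with a spread of 3.60-fold between the Aire-/- libraries and 2.83-fold between the Aire+/+ libraries. Leaving out Aire-/- replicate 1 gave a call on the higher side by edgeR (1.45, adjusted p = 0.010), as did leaving out Aire+/+ replicate 1 (1.72, adjusted p = 2.2e-09), while the value was -0.42 without Aire-/- replicate 2. Pmepa1, a feedback regulator of the pathway that the signal induces, had 2 to 7 counts per library and was too low to test. Bmp6, Acvr2b, Smad6 and Pmepa1 were picked after their values were seen.

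The SMAD-independent relay through the kinase TAK1 was tested for 8 of 8 genes, with 3 above 0 and 5 below and a median of -0.12. The TAK1 adaptor genes Tab1 (0.62) and Tab2 (0.36) had adjusted p of 0.94, and the phosphatase gene Ppp2ca had a log2 fold change of -0.45.

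**Figure D5:**
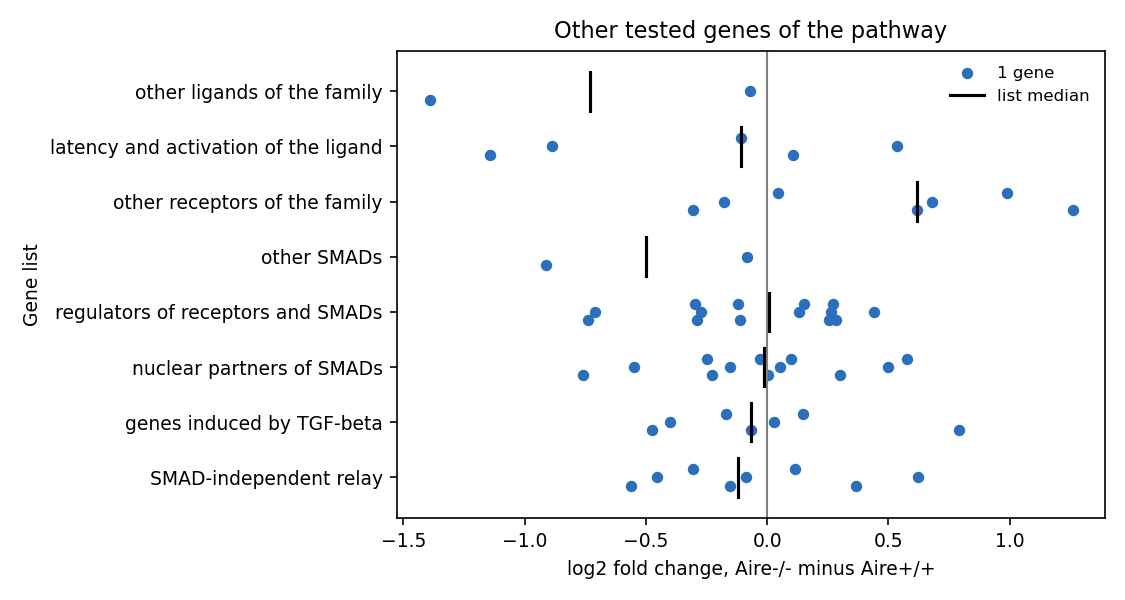
Log2 fold change, Aire-/- minus Aire+/+, of the 57 tested genes in the 8 other lists of the pathway, with a bar at each list's median. The list medians run from -0.73 for the other ligands, with 2 genes, to 0.62 for the other receptors.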

How the data were processed

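The deposited table gives raw counts of reads for each gene symbol in the 4 libraries, per the file headers. Per the submitters' processing notes, TopHat2 2.0.10, Cufflinks 2.2.1 and build mm10 were used, with no step assigned to each. The counting, annotation, strand and duplicate handling were not given in the sources used here, and Smart-Seq2 reads without molecular identifiers are not independent molecules. Groups and replicate numbers came from the sample titles. Same-genotype libraries were no copies: chi-square over degrees of freedom, across genes, was 4.10 for Aire-/- and 4.00 for Aire+/+. Counts were tested with edgeR 4.0.16 (R 4.3.3): TMM scaling, the filterByExpr filter at 10 counts and a total of 15, a quasi-likelihood fit with genotype as the 1 term, Benjamini-Hochberg over 9783 genes, called at an adjusted p under 0.05. SE is the absolute log2 fold change over the square root of F, and 95% intervals use its t distribution, both approximate. Ratios of summed counts carry exact binomial-based intervals. Lengths (longest transcript) and coordinates came from GENCODE M21 (GRCm38, the assembly mm10 names). The steps were also run on counts simulated with the same dispersion for every gene. The outcome is not given here, so it is no measure of the power of these tests.

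The members and lists were chosen with earlier results of these data known. Named genes are all members and, per list, up to 3 tested genes of smallest p and the most abundant per kilobase. The alternatives tried were scaling by DESeq2, by the upper quartile or by totals alone, Rn45s (the ribosomal RNA precursor) left out, limma 3.58.1's voom, DESeq2 1.42.0's Wald test, all genes with any count, at least 10 CPM in 2 libraries, a threshold of 0.1, robust dispersion, the replicate number as a block, and each library left out.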

Additional observations from a re-analysis of the deposited data

How the results depend on the processing

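None of the 15 alternatives called a member, and Smad7, Tgfbr2 and Skil kept their direction in all 15. The other 6 tested members turned direction only when 1 library was left out. Leaving out 1 library could hardly turn Smad7 or Tgfbr2, whose genotypes did not overlap. Over the 4 fits that leave out 1 library each, log2 fold changes ran from -0.13 to 0.31 for Tgfbr1, from -0.82 to 0.16 for Smad2, from -0.11 to 0.48 for Smad3, from -0.37 to 0.070 for Smad4, from -0.10 to 0.035 for Ski and from -0.017 to 0.28 for Tgif1. Among the other named genes they ran from -0.17 to 0.026 for Bmp7, from -4.50 to 3.43 for Thbs1, from -0.49 to 0.23 for Nrros, from -0.70 to 0.95 for Smad9, from -0.26 to 0.25 for Hdac1, from -0.42 to 1.72 for Junb and from -0.50 to 0.095 for Itgae. Smad9 was also 0.13 with limma-voom and 0.019 with the replicate block. Where 1 library remains in a genotype, its spread is taken to equal that of the other pair.

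Over all genes, 0 were called higher and 2 lower as reported. DESeq2's Wald test called 4 lower, limma-voom 1 lower, and the fit with no filter 21 higher and 26 lower. Leaving out 1 library gave 5 to 21 higher and 6 to 42 lower, with more genes tested in each such fit. Among the pathway lists these fits called 0 to 1 higher and 0 to 1 lower, and the fit with no filter called 1 higher, Junb (adjusted p = 0.0022). The cause was not tested. The replicate block called 2 higher and 4 lower over all genes and 0 members, although the numbers share no stated source and the differences between replicates 1 and 2 correlated at -0.077 between the genotypes across genes, which are not independent. At these depths the 12 Smad7 counts in each Aire-/- library carry a wide counting error, and Tgfb1 could not be tested.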
